A study of Neurospora crassa with 4 samples.

Results

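The 63 genes described here carry the machinery of membrane traffic between the endoplasmic reticulum (ER), the Golgi and the plasma membrane in *Neurospora crassa*. They were chosen by words in the Broad gene descriptions that accompany the deposited values (coatomer, COPII, clathrin, SNARE, syntaxin, synaptobrevin, ADP-ribosylation factor, exocyst, Golgi and vesicle among them), which selected 63 of 9691 rows. The words use no measured value, although the set was proposed with earlier results of these data known. By the same words they fell into 8 groups, namely 4 genes of the COPII coat and its cargo, 7 coatomer (COPI) subunits, 7 ADP-ribosylation factor (ARF) genes, 2 clathrin chains, 8 exocyst subunits, 18 SNAREs and partners, 13 Golgi genes and 4 other vesicle genes.

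Secretory proteins leave the ER in vesicles wrapped in the COPII coat, and the coatomer coat of COPI vesicles returns proteins and membrane from the Golgi to the ER. ARF GTPases recruit coatomer and clathrin adaptors to membranes, clathrin forms vesicles at the trans-Golgi and the plasma membrane, and SNAREs on facing membranes zip together to fuse them. The exocyst tethers secretory vesicles to the plasma membrane, and in filamentous fungi this traffic feeds the growing hyphal tip.

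RNA-seq libraries were made from Δ*czt-1* cells with staurosporine, Δ*czt-1* cells with DMSO, wild-type cells with staurosporine and wild-type cells with DMSO. Each culture was grown from conidia for 6 h at 26 °C and then received 20 μM staurosporine, a broad inhibitor of protein kinases that kills *N. crassa*, or its solvent DMSO for 1 h. The Δ*czt-1* strain lacks the gene of CZT-1, a transcription factor of the fungal zinc cluster family, and the study asked how its absence alters the transcriptional response to the drug. Each of the 4 groups is 1 library, so no value here has a replicate error, no test was possible, and "past 2-fold" is a statement of size on the log2(FPKM + 1) scale only.

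The values are FPKM (fragments counted per gene, scaled to transcript length and to the mapped fragments of the library), and the read depth behind them is unknown because no counts were used here. The deleted gene had 1.54 FPKM with staurosporine and 2.26 FPKM with DMSO in Δ*czt-1*, against 384 FPKM with staurosporine and 19.7 FPKM with DMSO in the wild type, so the strain labels hold for the deleted gene. The sum of all FPKM was 550288 and 570298 in the Δ*czt-1* and wild-type libraries with staurosporine, and 877439 and 1072129 in those with DMSO. The 100 most abundant genes held 39.2% and 34.1% of that sum with the drug and 51.9% and 56.6% without it. A rescaling of every library to an equal sum moved the median of all genes by 0.60 (log2) in the Δ*czt-1* response and by 0.74 in the wild-type response, so the members are read below against the median of all genes. Each library is of a whole culture, in which fewer cells of a kind and less RNA per cell cannot be told apart. Across 7517 genes with a known gene length, log2 differences that used the wild-type DMSO library also moved with length, with a Spearman rho across genes of 0.372 for Δ*czt-1* against the wild type in DMSO and 0.218 for the wild-type response. It was −0.275 for the Δ*czt-1* response minus the wild-type response, which also uses that library. The rho was −0.119 for the strains compared with the drug and −0.0705 for the Δ*czt-1* response. The differences also moved with level. With the mean FPKM of a gene the rho was −0.243 for the strains compared with the drug and −0.272 for the Δ*czt-1* response. It was −0.17 for the wild-type response, −0.189 for the strains with DMSO and −0.129 for the Δ*czt-1* response minus the wild-type response. Genes within one library are not independent replicates. The part of length and of level in the results below was not tested beyond the values given beside them.

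All 63 genes passed the filter of at least 1 FPKM in any library, which 7896 rows passed, and none was listed at 0. Their FPKM ran from 5.38 to 594. The median of the 63 was 34.2 FPKM in Δ*czt-1* with staurosporine, 34.7 FPKM in Δ*czt-1* with DMSO, 42.1 FPKM in the wild type with staurosporine and 27.0 FPKM in the wild type with DMSO. Their summed level was 3774 FPKM in Δ*czt-1* with staurosporine, 3588 FPKM in Δ*czt-1* with DMSO, 4422 FPKM in the wild type with staurosporine and 3393 FPKM in the wild type with DMSO. The wild-type pair was therefore farther apart than the Δ*czt-1* pair. Of the 63, 43 stayed within 2-fold in all 5 comparisons described below, where 44.6% of all genes did.

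The response to the drug differed between the strains. In Δ*czt-1*, 35 of the 63 genes were higher by any amount with staurosporine than with DMSO (50.0% of all genes), with a median of 0.04 against 0.00 over all genes. There 3 members rose past 2-fold (18.2% of all genes) and 5 fell past it (19.6% of all genes). In the wild type 53 of the 63 were higher by any amount with staurosporine (55.3% of all genes), with a median of 0.56 against 0.11 over all genes. Few of the wild-type differences were large, as 4 members rose past 2-fold (12.8% of all genes) and 2 fell past it (14.0% of all genes). Over genes with at least 10 FPKM in any library, all 63 members among them, the all-gene median was −0.15 in Δ*czt-1* and 0.06 in the wild type. After scaling to an equal sum, 53 members were higher with the drug in Δ*czt-1* and 61 in the wild type, so the direction of small differences within a strain depends on the scale. The strains compared with the drug were less affected, with 40 to 45 members lower in Δ*czt-1* under each scaling.

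The direction of the 2 responses was set side by side gene by gene. With the drug, 21 of the 63 members were lower in Δ*czt-1* and higher in the wild type, a pattern found in 17.8% of all genes. The opposite pattern was found in 3 members, against 12.2% of all genes, while 32 members were higher in both strains, against 37.4% of all genes. The response of Δ*czt-1* minus that of the wild type was below 0 in 45 members (53.1% of all genes). It was at least 2-fold lower in 12 members (17.5% of all genes) and at least 2-fold higher in 2 (13.5% of all genes), with a median of −0.42 against −0.07 over all genes. The all-gene median was −0.15 over genes with at least 10 FPKM in any library. After centring on genes of like length, an alternative chosen after the data were seen, the members' median was −0.22. The response was then at least 2-fold lower in 9 members (15.1% of all genes) and at least 2-fold higher in 3 (12.6%). The 5 comparisons share libraries, and this difference uses all 4 of them.

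**Figure D1:**
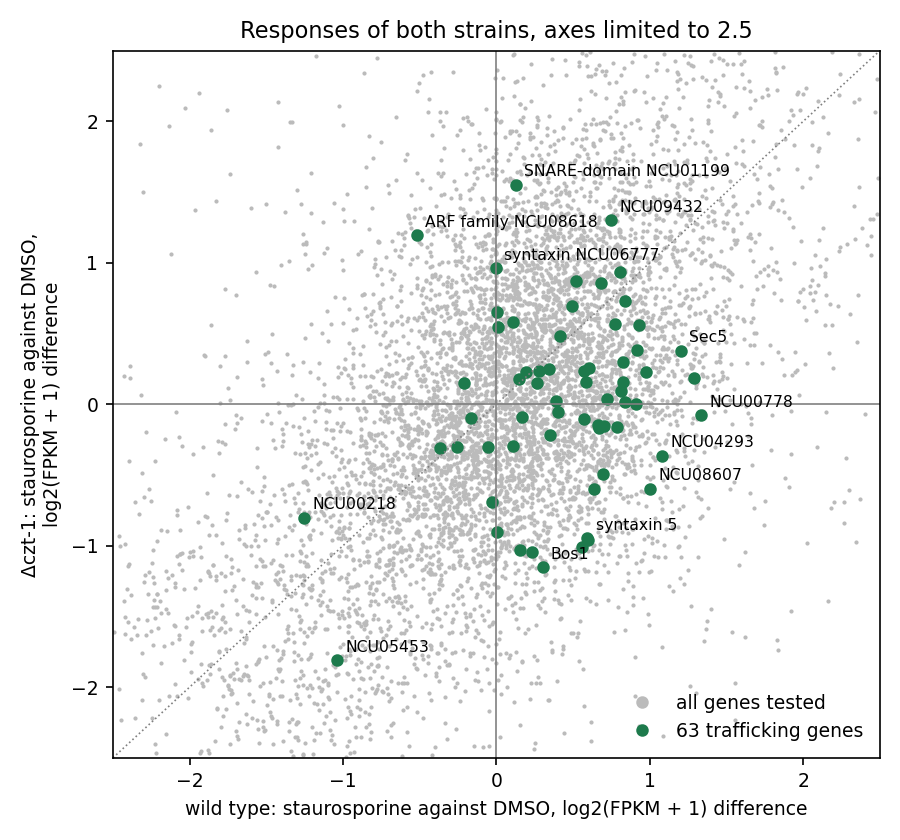
Log2(FPKM + 1) difference between staurosporine and DMSO in Δczt-1 (vertical axis) against that in the wild type (horizontal axis), with the 63 genes in green and all genes tested in grey. The green points scatter around 0 on the vertical axis, where 35 of 63 were higher in Δczt-1, and most lie right of 0, where 53 were higher in the wild type.

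Without the drug the strains were closer. Of the 63 genes, 43 had a higher level in Δ*czt-1* than in wild-type cells with DMSO (55.3% of all genes), with a median of 0.20 against 0.05, and none passed 2-fold, where 2.58% of all genes were that much higher and 2.36% that much lower. With staurosporine, 45 of the 63 were lower in Δ*czt-1* than in wild-type cells (51.3% of all genes), with a median of −0.26 against −0.03. Here 3 members were at least 2-fold higher (10.9% of all genes) and 4 at least 2-fold lower (12.2% of all genes). The comparison of the strains with staurosporine does not use the wild-type DMSO library. Over genes with at least 10 FPKM in any library the all-gene median was 0.03 between the strains with DMSO and −0.12 with staurosporine.

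The genes with a known length were also cut into 3 equal bins of short, middle and long genes, and 26 of the 63 genes were long. In the wild-type response the members' median was 0.27 against −0.10 for all genes in the short bin, 0.28 against 0.00 in the middle bin and 0.70 against 0.36 in the long bin. With staurosporine, the Δ*czt-1* level minus the wild-type level had a median of −0.17 against 0.08, −0.41 against −0.06 and −0.17 against −0.10 in the same bins. The members stood on the same side of all genes in each bin of these comparisons, although in the long bin the strains with the drug were close to all genes. In the Δ*czt-1* response the members changed sides, with −0.26 against 0.09 in the short bin, −0.09 against −0.06 in the middle bin and 0.21 against −0.04 in the long bin. Between the strains with DMSO the members were close to all genes, with −0.02 against −0.10, 0.04 against 0.01 and 0.38 against 0.28 in the same order. When every difference was centred on genes of like length, the members' median was 0.13 in the Δ*czt-1* response, 0.36 in the wild-type response, 0.08 between the strains with DMSO and −0.21 between them with the drug.

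**Figure D2:**
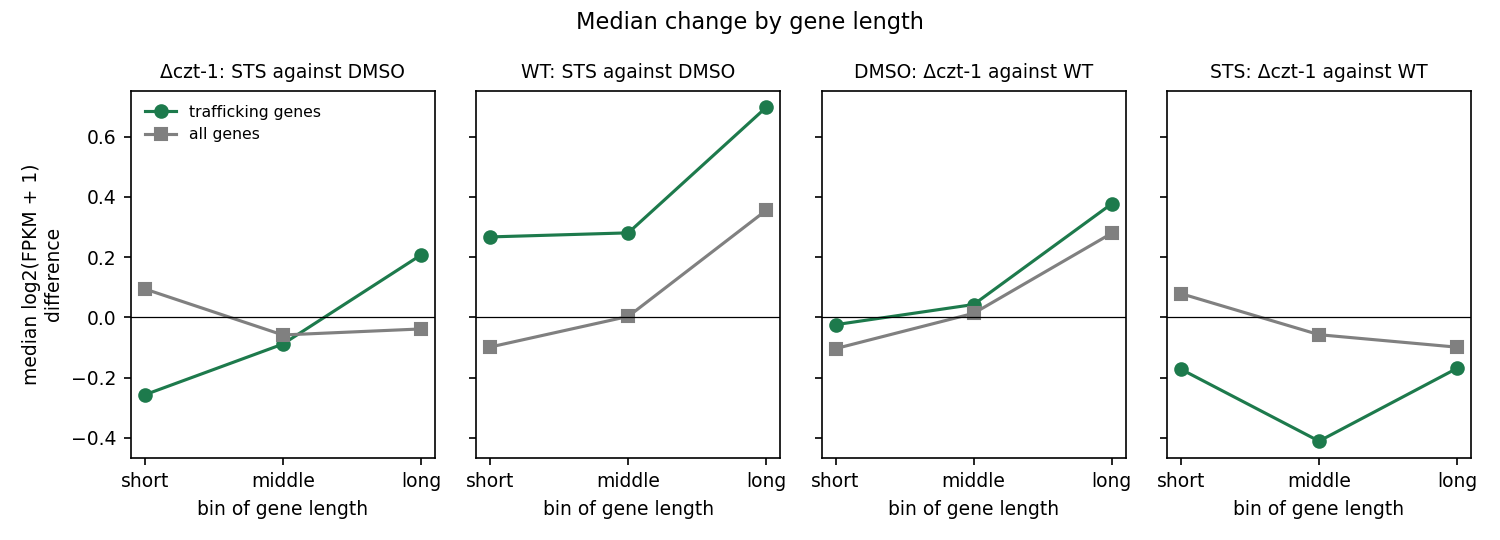
Median log2(FPKM + 1) difference of the 63 genes and of all genes with a known length, in 3 equal bins of gene length (short, middle and long, with 18, 19 and 26 of the 63 genes), in the 4 comparisons of single libraries. In the wild-type response the median of the 63 genes lies above that of all genes in every bin, and both are highest in the long bin.

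The subunits of the COPI coat shared a direction between the strains with the drug, in the wild-type response and in the Δ*czt-1* response minus the wild-type response. With the drug all 7 were lower in Δ*czt-1* than in wild-type cells, with differences from −0.63 to −0.33. Within Δ*czt-1* their differences with the drug ran from −0.30 to 0.30, with a median of −0.10, or 0.56 with 7 of 7 higher after scaling to an equal sum. Within the wild type all 7 were higher with staurosporine, by 0.11 to 0.91 (log2), but none passed 2-fold. Summed over the subunits, coatomer had 755 FPKM with staurosporine and 767 FPKM with DMSO in Δ*czt-1*, against 1058 FPKM with staurosporine and 713 FPKM with DMSO in the wild type. After centring on genes of like length, 7 of 7 remained lower in Δ*czt-1* with the drug, with a median of −0.44, and 7 of 7 remained higher in the wild-type response, with a median of 0.41. The Δ*czt-1* response minus the wild-type response ran from −0.95 to −0.12. After that centring 1 of 7 was above 0, and the median was −0.56.

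Subunit zeta (NCU02538), a small subunit of the coatomer core, was the most abundant of the 7. It had 162 FPKM with staurosporine and 146 FPKM with DMSO in Δ*czt-1*, against 203 FPKM with staurosporine and 169 FPKM with DMSO in the wild type. Subunit epsilon (NCU01002), which binds alpha in the outer layer of the coat, was the least abundant. It had 77.1 FPKM with staurosporine and 94.8 FPKM with DMSO in Δ*czt-1*, against 114 FPKM with staurosporine and 105 FPKM with DMSO in the wild type. These small subunits had the lowest wild-type differences of the complex, 0.27 for zeta and 0.11 for epsilon, or 0.05 and 0.13 after centring on genes of like length. The other 5 had 0.57 to 0.91, or 0.36 to 0.62 after that centring. Subunit gamma (NCU01992), named here after its values were seen, had 100.5 FPKM with staurosporine and 100.4 FPKM with DMSO in Δ*czt-1*, against 143 FPKM with staurosporine and 75.7 FPKM with DMSO in the wild type. Its 2 Δ*czt-1* levels were nearly equal and lay between those of the wild type.

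The 4 COPII genes were all higher with staurosporine in the wild type and all lower in Δ*czt-1* than in wild-type cells with the drug, with medians of 0.92 and −0.45. Their summed level was 240 FPKM with staurosporine and 186 FPKM with DMSO in Δ*czt-1*, against 347 FPKM with staurosporine and 186 FPKM with DMSO in the wild type. The Surf4/Erv29 gene NCU03319, whose yeast counterpart is a cargo receptor of COPII vesicles, was the most abundant. It had 159 FPKM with staurosporine and 107 FPKM with DMSO in Δ*czt-1*, against 211 FPKM with staurosporine and 110 FPKM with DMSO in the wild type. Its DMSO levels were alike and its staurosporine levels were higher in both strains, by 0.56 in Δ*czt-1* and 0.93 in the wild type.

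The gene of sec-16 (NCU03819), a scaffold of ER exit sites, was the least abundant COPII gene. It had 20.7 FPKM with staurosporine and 15.6 FPKM with DMSO in Δ*czt-1*, against 26.4 FPKM with staurosporine and 13.5 FPKM with DMSO in the wild type. The only COPII member to pass 2-fold was NCU04293, described as a COPII-coated vesicle protein. It had 21.2 FPKM with staurosporine and 27.5 FPKM with DMSO in Δ*czt-1*, against 54.3 FPKM with staurosporine and 25.1 FPKM with DMSO in the wild type. The wild-type library with the drug stood alone at about 2-fold above the other 3. NCU04293 had a difference of −0.36 in Δ*czt-1* and rose by 1.08 in the wild type, and with the drug the strains differed by −1.32 (Δ*czt-1* minus wild type). The rise was 0.97 after centring on the median gene and 0.98 with a pseudocount of 5, both just under 2-fold. The remaining COPII gene, of the Sec23/Sec24 family, lay between 35.1 and 55.6 FPKM, with differences of 0.16 in the Δ*czt-1* response and 0.58 in the wild-type response.

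The coat proteins sec-13, sec-23, sec-24 and sec-31 have a hyphen in their descriptions and were not selected by the words. A related list held 5 genes, these 4 and NCU06122, whose description names Sar1. With the drug 3 of 5 were higher in Δ*czt-1* (median 0.05) and 5 of 5 in the wild type (median 0.87). Between the strains with the drug 5 of 5 were lower in Δ*czt-1* (median −0.27). With the coatomer and COPII members they made 16 genes, of which 0 had a higher level in Δ*czt-1* than in wild-type cells with the drug. Of the 16, 9 were higher in the Δ*czt-1* response and 16 in the wild-type response. The counts of 0 and 16 held under either scaling and after centring on the median gene or on genes of like length. The count of 9 became 16 after scaling to an equal sum. The filter, pseudocount and threshold settings cannot change the sign of these differences, so they were no check of the counts. Of the 5 genes of the related list, only sec-13 (NCU04063), named here after its values were seen, was past 2-fold between the strains with the drug. Its difference was −1.06 (Δ*czt-1* minus wild type). The gene NCU06122, described as "GTPase activating protein Sar1", was the only one of the 5 past 2-fold between the strains with DMSO. It had 19.4 FPKM with staurosporine and 30.6 FPKM with DMSO in Δ*czt-1*, against 21.7 FPKM with staurosporine and 11.1 FPKM with DMSO in the wild type. Sar1 is the GTPase that starts COPII assembly, but the description does not say whether NCU06122 acts on it. The Δ*czt-1* DMSO level of NCU06122 stood above the other 3.

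**Figure D3:**
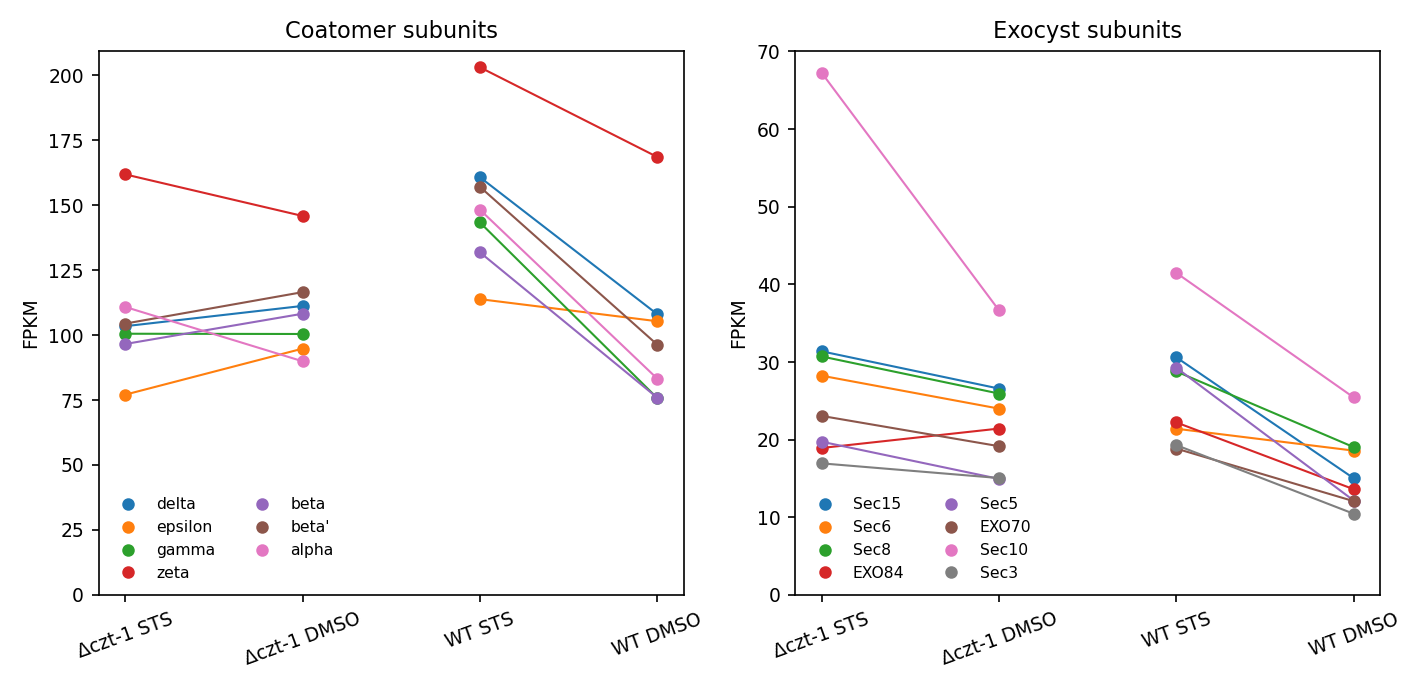
FPKM of the 7 coatomer subunits and the 8 exocyst subunits in the 4 libraries, with 1 colour a gene, each point 1 library and a line between the libraries of a strain. Coatomer subunits with the drug lie lower in Δczt-1 than in the wild type in all 7 cases, while exocyst genes with DMSO lie higher in Δczt-1 in all 8.

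The exocyst genes had no shared direction between the strains with the drug. With staurosporine 7 of 8 were higher than with DMSO in Δ*czt-1*, with a median of 0.23, and 8 of 8 in the wild type, with a median of 0.68. All 8 also had a higher level in Δ*czt-1* than in wild-type cells with DMSO, with a median of 0.50, while with the drug the strains had a median difference of 0.06. The summed exocyst level was 236 FPKM with staurosporine and 184 FPKM with DMSO in Δ*czt-1*, against 212 FPKM with staurosporine and 126 FPKM with DMSO in the wild type, so the wild-type DMSO library was the lowest of the 4. Over all genes, differences that used this library moved with gene length. Across the 8 exocyst genes the rho with length was −0.333 between the strains with DMSO and 0.571 in the wild-type response. The part of length was not tested. After centring on genes of like length, the median was 0.26 between the strains with DMSO with 6 of 8 higher, and 0.39 in the wild-type response with 7 of 8 higher.

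Sec5 (NCU07698) was the exocyst subunit past 2-fold. It had 19.7 FPKM with staurosporine and 15.0 FPKM with DMSO in Δ*czt-1*, against 29.3 FPKM with staurosporine and 12.2 FPKM with DMSO in the wild type. Both DMSO levels were below both drug levels, and Sec5 had a difference of 0.38 in Δ*czt-1* and rose by 1.20 in the wild type. The rise was 0.86 after centring on genes of like length and 0.997 with a pseudocount of 5, so it was no longer past 2-fold under either.

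Sec10 (NCU09313) was the most abundant exocyst gene. It had 67.3 FPKM with staurosporine and 36.7 FPKM with DMSO in Δ*czt-1*, against 41.5 FPKM with staurosporine and 25.4 FPKM with DMSO in the wild type. Sec10 was higher with the drug in both strains and higher in Δ*czt-1* under both treatments. Sec3 (NCU09869), which in yeast marks the sites of exocytosis at the membrane, was the least abundant on average. It had 16.95 FPKM with staurosporine and 15.1 FPKM with DMSO in Δ*czt-1*, against 19.3 FPKM with staurosporine and 10.5 FPKM with DMSO in the wild type. The other 5 subunits lay between 12.1 and 31.4 FPKM, with differences from −0.17 to 0.25 in the Δ*czt-1* response and from 0.19 to 0.98 in the wild-type response.

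The ARF genes had no shared direction. Their medians were −0.10 in the Δ*czt-1* response and −0.06 in the wild-type response, and their summed level stayed between 776 and 818 FPKM in the 4 libraries. That sum was dominated by an ARF1 variant (NCU08340), the most abundant of the 63 genes. It had 514 FPKM with staurosporine and 551 FPKM with DMSO in Δ*czt-1*, against 530 FPKM with staurosporine and 594 FPKM with DMSO in the wild type. Its 4 levels differed little while those of 3 less abundant relatives passed 2-fold.

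The gene NCU08989, also described as ARF1, had 42.6 FPKM with staurosporine and 89.1 FPKM with DMSO in Δ*czt-1*, against 67.0 FPKM with staurosporine and 56.9 FPKM with DMSO in the wild type. It fell by 1.05 in Δ*czt-1* and had a difference of 0.23 in the wild type. The fall was −0.98 with a pseudocount of 5 and −0.95 after scaling to an equal upper quartile, which is under 2-fold, and −0.39 after scaling to an equal sum. The levels of single ARF genes are uncertain where near-identical copies share reads, since the assignment of such reads is not stated.

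The ARF family gene NCU08618 moved the opposite way. It had 31.3 FPKM with staurosporine and 13.1 FPKM with DMSO in Δ*czt-1*, against 11.2 FPKM with staurosporine and 16.4 FPKM with DMSO in the wild type. The Δ*czt-1* library with the drug was the highest of the 4, with a rise of 1.20 there and a difference of −0.52 in the wild type. NCU08618 was 1.41 higher in Δ*czt-1* than in wild-type cells with the drug. Another relative, the ARF family gene NCU00218, was the least abundant of the group. It had 6.80 FPKM with staurosporine and 12.6 FPKM with DMSO in Δ*czt-1*, against 5.38 FPKM with staurosporine and 14.2 FPKM with DMSO in the wild type. Both drug levels were below both DMSO levels. It fell past 2-fold in the wild type, by 1.26, and had −0.80 in Δ*czt-1*. With a pseudocount of 5 the wild-type fall was −0.89 and with libraries scaled to an equal sum it was −0.44. The other 3 ARF genes, with ARF6 and the clathrin adaptor GGA1 among them, had differences from −0.30 to 0.69 in Δ*czt-1* and from −0.06 to 0.50 in the wild type.

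Clathrin is built from heavy and light chains in equal numbers. On the deposited scale the genes of these chains differed in direction in the wild-type response and between the strains with DMSO. With the drug both were lower in Δ*czt-1* than in wild-type cells, with −0.56 for the heavy chain and −0.34 for the light chain. The heavy chain gene (NCU02510) had 72.7 FPKM with staurosporine and 103 FPKM with DMSO in Δ*czt-1*, against 108 FPKM with staurosporine and 66.2 FPKM with DMSO in the wild type. The light chain gene (NCU04115) had 131 FPKM with staurosporine and 162 FPKM with DMSO in Δ*czt-1*, against 165 FPKM with staurosporine and 197 FPKM with DMSO in the wild type. The light chain was lower with the drug in both strains, with −0.30 in Δ*czt-1* and −0.25 in the wild type, while the heavy chain had −0.49 in Δ*czt-1* and 0.69 in the wild type. After scaling to an equal sum all 4 of these differences were above 0. The ratio of heavy to light FPKM was 0.556 with staurosporine and 0.635 with DMSO in Δ*czt-1*, against 0.651 with staurosporine and 0.335 with DMSO in the wild type, so the wild-type DMSO library stood apart from the other 3. The heavy chain's response in Δ*czt-1* minus that in the wild type was −1.19, and −0.53 after centring on genes of like length.

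**Figure D4:**
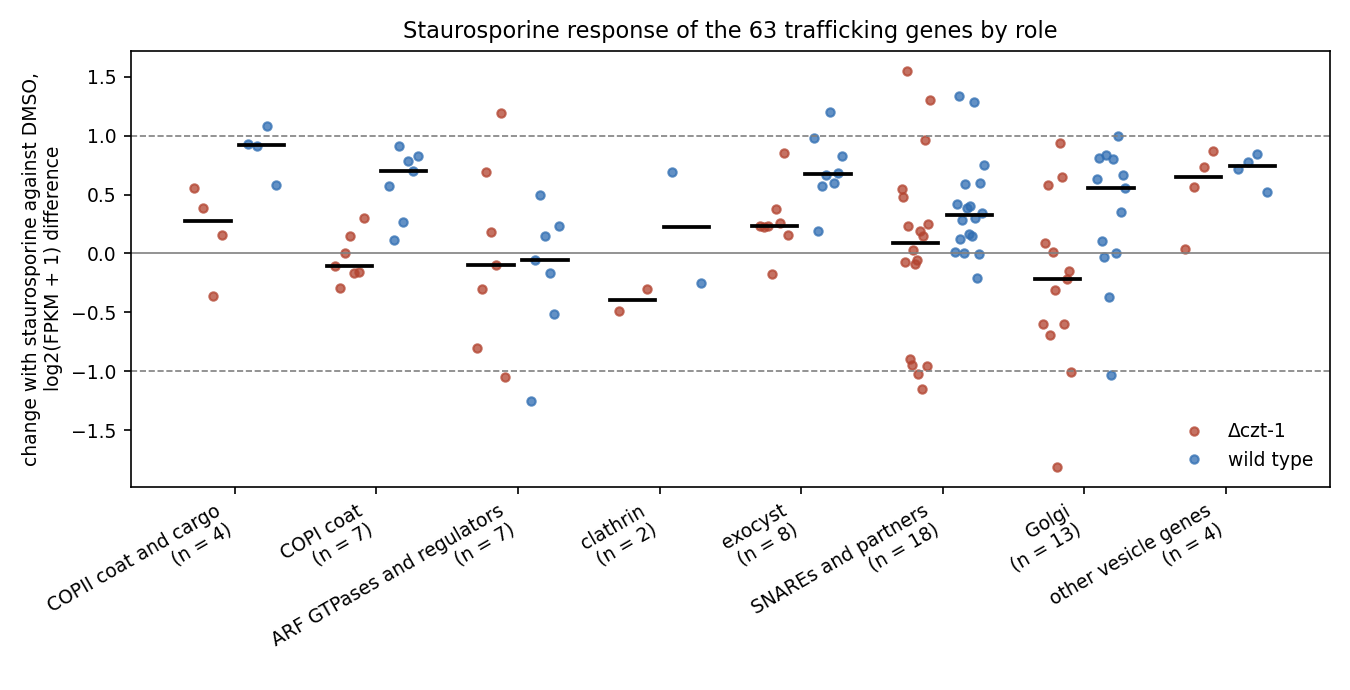
Log2(FPKM + 1) difference between staurosporine and DMSO for each of the 63 genes by group, in Δczt-1 (red) and the wild type (blue), with the median of each group as a bar. Coatomer and exocyst genes all lie above 0 in the wild type, and the SNARE and Golgi groups spread most widely in Δczt-1.

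The 18 SNAREs and partners differed in both directions. With staurosporine 10 of them were higher in Δ*czt-1*, where the median was 0.09, while in the wild type 16 were higher and the median was 0.32. The differences in Δ*czt-1* ran from −1.15 to 1.55, so the small median covers members that rose and fell. Synaptobrevin (NCU00566), the SNARE carried by secretory vesicles, was the most abundant. It had 223 FPKM with staurosporine and 159 FPKM with DMSO in Δ*czt-1*, against 241 FPKM with staurosporine and 180 FPKM with DMSO in the wild type. It was higher with the drug in both strains, by 0.48 in Δ*czt-1* and 0.42 in the wild type.

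The genes of 2 SNAREs of the ER-Golgi step were lowest in Δ*czt-1* with the drug. Syntaxin 5 (NCU01907), whose yeast counterpart Sed5 acts in fusion at the early Golgi, had 22.7 FPKM with staurosporine and 44.6 FPKM with DMSO in Δ*czt-1*, against 42.1 FPKM with staurosporine and 27.6 FPKM with DMSO in the wild type. Bos1 (NCU04943), which in yeast pairs with Sed5 on vesicles from the ER, had 8.98 FPKM with staurosporine and 21.2 FPKM with DMSO in Δ*czt-1*, against 21.5 FPKM with staurosporine and 17.3 FPKM with DMSO in the wild type. In both genes the Δ*czt-1* library with the drug was the lowest of the 4. Bos1 fell by 1.15 in Δ*czt-1*, with a difference of 0.30 in the wild type, and a difference of −1.17 between Δ*czt-1* and wild-type cells with the drug. With a pseudocount of 5 these Bos1 values were −0.91 and −0.92, and the fall was −0.53 after scaling to an equal sum. Syntaxin 5 had −0.95 in Δ*czt-1* and 0.59 in the wild type, and its response in Δ*czt-1* minus that in the wild type was −1.54.

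The gene NCU00778, described as a sed5 vesicle protein, had 23.5 FPKM with staurosporine and 24.8 FPKM with DMSO in Δ*czt-1*, against 43.7 FPKM with staurosporine and 16.7 FPKM with DMSO in the wild type. It had −0.08 in Δ*czt-1*, where its levels lay between those of the wild type, and rose by 1.33 in the wild type. The SNARE docking complex subunit NCU04252 had 40.0 FPKM with staurosporine and 35.0 FPKM with DMSO in Δ*czt-1*, against 57.6 FPKM with staurosporine and 23.1 FPKM with DMSO in the wild type. It had 0.19 in Δ*czt-1* and rose by 1.29 in the wild type, or 0.997 after centring on genes of like length.

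Syntaxins were split. Syntaxin 2 (NCU04244, syn-2) had 41.5 FPKM with staurosporine and 85.6 FPKM with DMSO in Δ*czt-1*, against 77.0 FPKM with staurosporine and 69.2 FPKM with DMSO in the wild type. The least abundant SNARE, the syntaxin NCU07939, had 8.22 FPKM with staurosporine and 16.9 FPKM with DMSO in Δ*czt-1*, against 16.8 FPKM with staurosporine and 10.7 FPKM with DMSO in the wild type. In these genes the Δ*czt-1* library with the drug was again the lowest. Syntaxin 2 fell by 1.03 in Δ*czt-1*, a value between −0.96 and −0.37 with a pseudocount of 5, under either scaling or after centring on length, and NCU07939 had −0.96.

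A further syntaxin gene, NCU06777, had 64.7 FPKM with staurosporine and 32.7 FPKM with DMSO in Δ*czt-1*, against 25.5 FPKM with staurosporine and 25.6 FPKM with DMSO in the wild type. The wild-type levels were nearly equal and the Δ*czt-1* library with the drug was the highest, 1.31 above the wild type with the drug. The FPKM ratio of NCU06777 to syntaxin 2 was 1.56 with staurosporine and 0.382 with DMSO in Δ*czt-1*, against 0.331 with staurosporine and 0.369 with DMSO in the wild type. Of the 4 libraries, the order of these syntaxins was turned round in Δ*czt-1* with the drug only.

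Another pair of SNARE-related genes rose in Δ*czt-1*. The SNARE domain gene NCU01199 had 77.0 FPKM with staurosporine and 25.6 FPKM with DMSO in Δ*czt-1*, against 29.6 FPKM with staurosporine and 27.0 FPKM with DMSO in the wild type. The SNARE-dependent exocytosis gene NCU09432 had 34.2 FPKM with staurosporine and 13.3 FPKM with DMSO in Δ*czt-1*, against 20.7 FPKM with staurosporine and 11.9 FPKM with DMSO in the wild type. Both had their highest level in Δ*czt-1* with the drug. NCU01199 rose by 1.55 in Δ*czt-1*, against 0.13 in the wild type, and NCU09432 rose by 1.30, against 0.75 in the wild type. The SNARE complex subunit NCU01741 went the other way, with 11.2 FPKM with staurosporine and 21.7 FPKM with DMSO in Δ*czt-1*, against 24.4 FPKM under both treatments in the wild type. Its difference between Δ*czt-1* and wild-type cells with the drug was −1.06, or −0.86 with a pseudocount of 5 and −0.996 after scaling to an equal upper quartile. The 7 SNAREs not yet described lay between 22.1 and 108 FPKM, with differences from −0.09 to 0.55 in the Δ*czt-1* response and from −0.21 to 0.40 in the wild-type response.

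**Figure D5:**
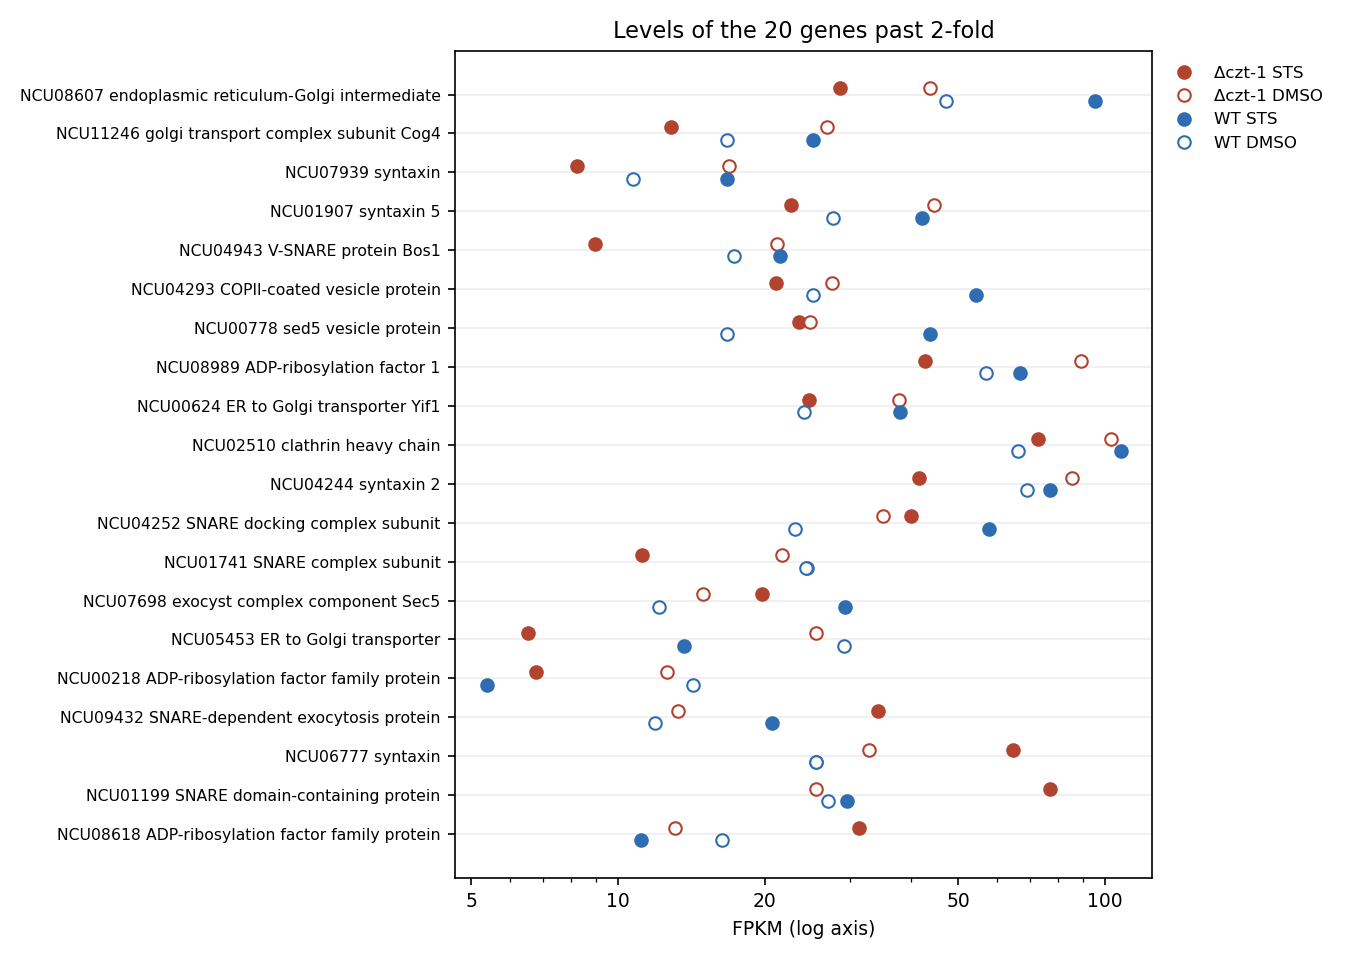
FPKM on a log axis of the 20 genes past 2-fold in any comparison, with Δczt-1 in red, the wild type in blue, staurosporine filled and DMSO open. Genes are ordered from the lowest response in Δczt-1 relative to the wild type (NCU08607, −1.60) at the top to the highest (NCU08618, 1.71) at the bottom.

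Of the 13 Golgi genes 8 were lower with the drug in Δ*czt-1*, with a median of −0.22 (3 lower and a median of 0.43 after scaling to an equal sum), and 10 were higher with it in the wild type, with a median of 0.56. With the drug 11 of the 13 were lower in Δ*czt-1* than in wild-type cells, with a median of −0.48. The highest by level was tvp-18 (NCU04760), a Golgi membrane protein. It had 71.3 FPKM with staurosporine and 70.5 FPKM with DMSO in Δ*czt-1*, against 108 FPKM with staurosporine and 59.8 FPKM with DMSO in the wild type. As with coatomer gamma, its Δ*czt-1* levels were nearly equal and lay between those of the wild type.

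The largest strain difference with the drug among the 63 genes belonged to NCU08607, described by its place between the ER and the Golgi. It had 28.6 FPKM with staurosporine and 43.8 FPKM with DMSO in Δ*czt-1*, against 95.2 FPKM with staurosporine and 47.1 FPKM with DMSO in the wild type. Its DMSO levels were close and its drug levels lay on opposite sides of them. The difference between Δ*czt-1* and wild-type cells with the drug was −1.70 for NCU08607. Its response was −0.60 in Δ*czt-1* and 0.9998 in the wild type, just short of 2-fold.

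The gene NCU05453, an ER to Golgi transporter, was the only member past 2-fold in the same direction in both strains. It had 6.54 FPKM with staurosporine and 25.5 FPKM with DMSO in Δ*czt-1*, against 13.7 FPKM with staurosporine and 29.1 FPKM with DMSO in the wild type. It fell by 1.81 in Δ*czt-1*, the largest fall of the 63, and by 1.04 in the wild type. The wild-type fall was −0.87 with a pseudocount of 5, −0.98 after scaling to an equal upper quartile and −0.17 after scaling to an equal sum.

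Yif1 (NCU00624), a Golgi membrane protein that in yeast works with Yip1 in vesicle traffic from the ER, had 24.7 FPKM with staurosporine and 37.8 FPKM with DMSO in Δ*czt-1*, against 37.9 FPKM with staurosporine and 24.04 FPKM with DMSO in the wild type. Its levels in the strains were nearly exchanged between the treatments. The response of Yif1 was −0.60 in Δ*czt-1* and 0.63 in the wild type.

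The COG complex is a tether of vesicles within the Golgi, and 2 of its subunits were members. Cog4 (NCU11246) had 12.9 FPKM with staurosporine and 26.9 FPKM with DMSO in Δ*czt-1*, against 25.1 FPKM with staurosporine and 16.7 FPKM with DMSO in the wild type. Cog5 (NCU05067), the least abundant Golgi gene, had 8.82 FPKM with staurosporine and 11.2 FPKM with DMSO in Δ*czt-1*, against 12.7 FPKM with staurosporine and 16.6 FPKM with DMSO in the wild type. Cog5 had −0.31 in Δ*czt-1* and −0.37 in the wild type, both above 0 after scaling to an equal sum, while Cog4 fell by 1.01 in Δ*czt-1* and had 0.56 in the wild type. The fall of Cog4 was at the threshold and passed below it with a pseudocount of 5 (−0.84), under either scaling (−0.37 and −0.92) and after centring on genes of like length (−0.99). The 7 Golgi genes not yet described lay between 11.7 and 67.3 FPKM, with differences from −0.69 to 0.94 in the Δ*czt-1* response and from −0.03 to 0.81 in the wild-type response.

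The 4 other vesicle genes were higher with the drug in both strains, with medians of 0.65 in Δ*czt-1* and 0.75 in the wild type. The gene NCU07727, described as a COPI-coated vesicle protein, was the most abundant. It had 114 FPKM with staurosporine and 68.3 FPKM with DMSO in Δ*czt-1*, against 118 FPKM with staurosporine and 65.3 FPKM with DMSO in the wild type. Its levels were alike in the strains under each treatment, unlike those of the coatomer subunits. Vid24 (NCU04406), described as a vesicle-mediated transporter, was the least abundant. It had 20.7 FPKM with staurosporine and 13.7 FPKM with DMSO in Δ*czt-1*, against 12.9 FPKM with staurosporine and 7.14 FPKM with DMSO in the wild type, higher in Δ*czt-1* under both treatments. The remaining pair, with the tail-anchored protein receptor subunit Get1 of the ER, lay between 18.2 and 76.8 FPKM and was higher with the drug by 0.04 to 0.87 in Δ*czt-1* and by 0.52 to 0.72 in the wild type.

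Genes outside the 63 that act beside them were taken from lists of description words. Of 30 genes for tethering, fusion, Rab GTPases and clathrin adaptors, 18 were higher with the drug in Δ*czt-1* (median 0.15, with 3 past 2-fold higher and 1 lower) and 24 in the wild type (median 0.51, 4 past 2-fold). Of 21 genes for ER translocation and folding, 11 were higher with the drug in Δ*czt-1* (median 0.00, 1 past 2-fold) and 19 in the wild type (median 0.78, 7 past 2-fold). With the drug 19 of those 21 were lower in Δ*czt-1* than in wild-type cells (51.3% of all genes), with a median of −0.82. Of all genes, 50.0% were higher with the drug in Δ*czt-1*, where 18.2% rose and 19.6% fell past 2-fold. In the wild type 55.3% of all genes were higher with the drug and 12.8% rose past 2-fold.

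SEC18 (NCU03387), the ATPase that takes spent SNARE complexes apart, had 102 FPKM with staurosporine and 39.2 FPKM with DMSO in Δ*czt-1*, against 118 FPKM with staurosporine and 40.7 FPKM with DMSO in the wild type. It rose in both strains, by 1.36 in Δ*czt-1* and by 1.51 in the wild type, with nearly the same levels. An ER lumen protein retaining receptor (NCU03214), of the family that retrieves ER proteins from the Golgi in COPI vesicles, rose by 1.70 in Δ*czt-1* and by 1.60 in the wild type. The Golgi transport gene SFT2 (NCU02723) also rose in both, by 1.68 in Δ*czt-1* and by 1.02 in the wild type, and the Rab GTPase YPT52 (NCU06410) rose by 1.61 in Δ*czt-1* and had 0.90 in the wild type. Another gene described as an ER lumen protein retaining receptor, NCU06771, is named here after its values were seen. It had 0.21 in Δ*czt-1* and rose by 1.24 in the wild type, with −0.87 between the strains with the drug.

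Others of these genes differed between the strains. The prenylated Rab acceptor NCU11237 had 114 FPKM with staurosporine and 95.2 FPKM with DMSO in Δ*czt-1*, against 196 FPKM with staurosporine and 42.0 FPKM with DMSO in the wild type. It had 0.26 in Δ*czt-1*, rose by 2.20 in the wild type, and stood 1.16 higher in Δ*czt-1* with DMSO. Calreticulin (NCU09265), an ER chaperone, had 96.9 FPKM with staurosporine and 187 FPKM with DMSO in Δ*czt-1*, against 274 FPKM with staurosporine and 165 FPKM with DMSO in the wild type. The ER translocation gene sec72 (NCU07658) had −0.27 in Δ*czt-1* and rose by 1.10 in the wild type. The AP-2 sigma gene (NCU07989), a subunit of the clathrin adaptor of endocytosis, had −0.93 in Δ*czt-1* and 0.67 in the wild type. The Got1 gene NCU06396, of a family acting in transport to the Golgi, fell by 1.95 in Δ*czt-1* and had 0.01 in the wild type. The deposited tables mark its comparisons as failed, so its levels are uncertain. Such marks are not reported here for the other genes.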

How the data were processed

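RNA-seq was analyzed for 4 libraries of *N. crassa*, 1 for each of Δ*czt-1* and wild-type cells with staurosporine or DMSO. The authors sequenced single reads of 50 bases, and the labels name TopHat2 2.0.4, Cufflinks 2.0.2 and Cuffdiff. The sources used here name no genome build. The authors deposited 3 tables with FPKM values for pairs of libraries over 9691 rows, and the values of a library shared by several tables were identical in all of them. The tables also hold the authors' fold changes, test statistics, p-values and q-values, none of which was used. Of the rows, 66 join several loci.

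Log2 differences were computed as differences of log2(FPKM + 1), with a pseudocount of 1, over rows with at least 1 FPKM in any library. With 1 library per group no test was run, and a gene was counted as past 2-fold by size alone. Gene lengths and symbols came from the RefSeq table of the assembly NC12, which held all 63 members and gave a symbol for 4. Words excluding other genes removed 0 members. Python 3.11.15, pandas 2.3.3, numpy 2.4.6, scipy 1.17.1 and matplotlib 3.10.9 were used.

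The members, their groups and the related lists were chosen with earlier results of these data known. Named genes are the members past 2-fold in any of 5 comparisons, the most and least abundant member of each group by mean FPKM, the deleted gene and the 10 genes of the related lists with the largest differences past 2-fold. Alternatives were pseudocounts of 0.1 and 5, no filter or at least 10 FPKM, centring on the median gene, scaling to an equal FPKM sum or upper quartile, thresholds of 1.5-fold and 3-fold, and, chosen after the data were seen, centring on the median of genes of like length in 20 bins.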

Additional observations from a re-analysis of the deposited data

Results flagged for a closer look

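In 12 of the 63 genes the 2 strains moved in opposite directions with the drug and the response in Δ*czt-1* differed from that in the wild type by at least 2-fold, a pattern found in 14.9% of all genes. With 1 library per group the difference was not tested. The response in Δ*czt-1* minus that in the wild type, on the log2(FPKM + 1) scale, was below 0 in 11 of the 12, where 8.93% of all genes had the pattern in that direction and 5.99% in the other. Among genes of the ER and Golgi it was −1.60 for NCU08607, −1.57 for Cog4 (NCU11246) and −1.23 for Yif1 (NCU00624). Among SNAREs it was −1.56 for the syntaxin NCU07939, −1.54 for syntaxin 5 (NCU01907), −1.46 for Bos1 (NCU04943), −1.41 for the sed5 vesicle protein NCU00778 and −1.18 for syntaxin 2 (NCU04244). It was −1.44 for the COPII-coated vesicle protein NCU04293, −1.28 for ARF1 (NCU08989) and −1.19 for the clathrin heavy chain (NCU02510). The exception was the ARF family gene NCU08618, with 1.71. The values for syntaxin 2 and the clathrin heavy chain were under 2-fold after centring on genes of like length. After scaling to an equal FPKM sum, 6 of the 12 still had opposite directions in the strains, and 11 did after scaling to an equal upper quartile. Counted anew under the equal sum, 7 of the 63 had the full pattern (13.9% of all genes). All 7 had a lower response in Δ*czt-1* (10.8% of all genes). Under the equal upper quartile 11 of the 63 had it (14.5% of all genes), of which 10 had a lower response (8.42%). NCU00778 had only −0.08 in the Δ*czt-1* response, and 0.02 after scaling to an equal upper quartile.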

How the results depend on the processing

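No called value changed its direction under either scaling, or after centring on the median gene or on genes of like length. The filter and threshold settings could not change a direction, nor could the pseudocounts in a difference of single libraries. Libraries scaled to an equal FPKM sum gave 17 members higher and 1 lower past 2-fold in the Δ*czt-1* response (35% of all genes higher and 10.7% lower). They gave 50 higher and 0 lower in the wild type (43.1% of all genes higher and 4.47% lower). They also gave 2 higher in Δ*czt-1* with DMSO (5.27%) and 21 with a lower response in Δ*czt-1* (23.1%). The members' medians then were 0.69 in the Δ*czt-1* response, 1.42 in the wild-type response and 0.47 between the strains with DMSO, and those of all genes 0.60, 0.85 and 0.29. An equal upper quartile gave 5 higher (20.1% of all genes) and 2 lower (17.9%) in Δ*czt-1*, and left 1 lower member in the wild type (13.2%). A pseudocount of 5 left 1 lower in Δ*czt-1* (15.2% of all genes), and 2 higher (6.79%) and 0 lower (11%) in the wild type. It left 2 lower in Δ*czt-1* with the drug (7.4%). At 1.5-fold, with the share of all genes in parentheses, 10 members were higher (29.6%) and 12 lower (29.7%) in the Δ*czt-1* response, 28 higher in the wild-type response (26.8%), 10 higher (11.8%) and 1 lower (7.88%) in Δ*czt-1* with DMSO, 6 higher (22%) and 15 lower (23.2%) in Δ*czt-1* with the drug, and 4 had a higher (24.3%) and 27 a lower (29.8%) response in Δ*czt-1*. At 3-fold the counts were 0 higher (8.5%) and 1 lower (11%) in Δ*czt-1*, 0 higher (4.45%) and 0 lower (6.84%) in the wild type, 0 higher (3.71%) and 1 lower (4.89%) between the strains with the drug, and 1 higher (5.56%) and 1 lower (7.18%) for the response. Of 35 member values past 2-fold, 24 stayed past it with a pseudocount of 5, 29 with an equal sum, 30 with an equal upper quartile, 34 after centring on the median gene, 28 after centring on genes of like length and 4 at 3-fold, and all 35 under each other alternative. No paired analysis was possible because each group is 1 library. FPKM give no read depth, so no counting error could be set beside any value.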
